A study of Mus musculus with 10 samples.

Results

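Tomato hybrid cells (THC) sorted from the mouse mammary gland after ablation of luminal cells were compared with control luminal cells (LC). The libraries were chosen by their cell type label, which gave 2 THC and 2 LC libraries, 4 of the 10 RNA sequencing libraries in the series. The THC label gives ablation of luminal cells as treatment and names Tomato, a red fluorescent protein used to mark a cell and its descendants. LC had no treatment label, and the second LC library was also labelled WT. The labels used here name no mouse strain, no promoter for Tomato or for the ablation, no age, no sorting gate and no number of pooled animals. The other populations, used for side values, were Tomato luminal cells (TLC) and Tomato basal cells (TBC), both after ablation, and basal cells without a treatment label (BC), with 2 libraries each. The second BC library was also labelled WT. THC and LC thus differed in ablation, in Tomato marking and in cell population at once, and these cannot be told apart here. Nothing in the labels says that replicates were taken from separate animals, and p-values here measure only the spread between these samples.

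The mammary duct is a bilayer. Its inner luminal cells line the lumen, carry simple keratins and include hormone-sensing cells with estrogen and progesterone receptors and progenitors of the milk-secreting alveoli. Its outer basal, or myoepithelial, cells carry the keratins Krt5 and Krt14 and the transcription factor Trp63, sit on the basement membrane and contract in response to oxytocin. In the adult gland each layer is mostly maintained by its own cells, and basal cells can give rise to luminal cells under conditions such as transplantation or loss of luminal cells.

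The THC libraries held 2757773 and 13601753 counts assigned to genes, against 9746963 and 13685674 in the LC libraries, so THC replicate 1 was the shallowest of all 10 libraries. It also had the largest share of reads without a unique alignment, 43.0%. Levels are given as CPM, counts scaled to library size with TMM factors. A gene is called at an adjusted p under 0.05 in the quasi-likelihood test of edgeR, adjusted by Benjamini-Hochberg over 19757 genes, and every adjusted p below is of that kind. Of these genes, 1760 were called higher in THC and 791 lower, which is 8.91% and 4.0% of the genes tested, or 12.9% in either direction. The counts called in each list below are to be read beside these shares. The median log2 fold change of all genes tested was 0.01. Without THC replicate 1 the counts were 1129 higher and 210 lower, and without THC replicate 2 they were 1016 and 295. Leaving out LC replicate 1 gave 1269 and 464, and leaving out LC replicate 2 gave 790 and 351.

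**Figure D1:**
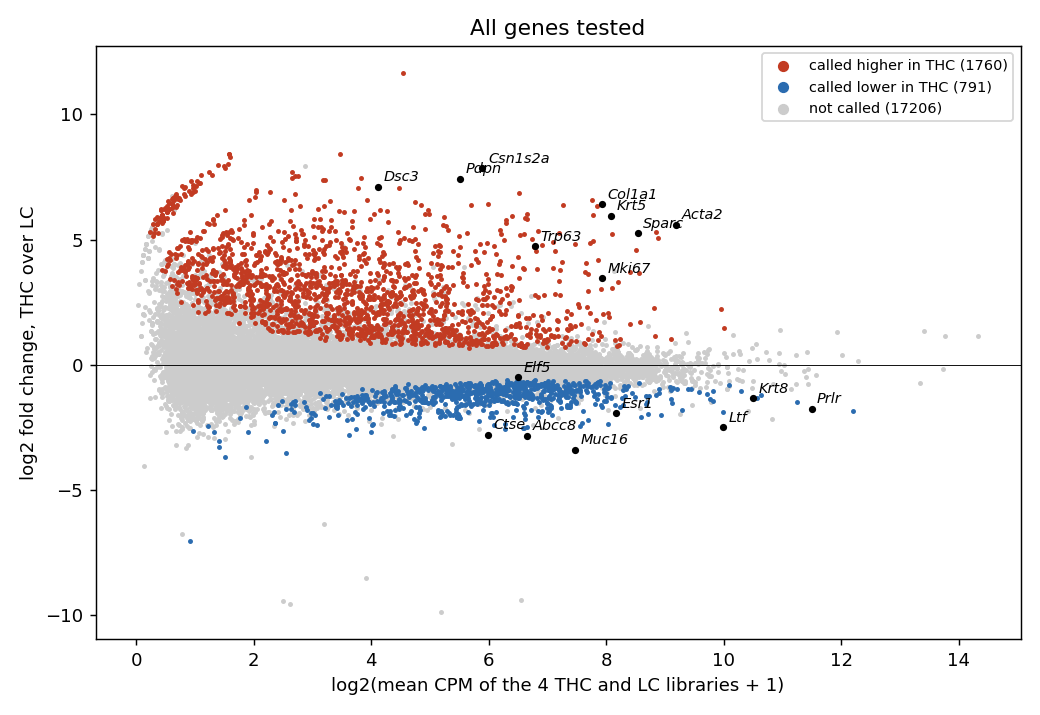
Log2 fold change of THC over LC (vertical axis) against the log2 mean CPM (horizontal axis) for 19757 genes, with 1760 called higher in THC, 791 called lower and 17206 not called in separate colours. Points called higher reach larger fold changes than points called lower.

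Genes of basal identity were higher in THC than in LC. Of 20 such genes, all tested, 14 were called higher and 0 lower, and the list median of the log2 fold change was 3.65. Krt5 (chr15:101707070-101712898, - strand, GRCm38), a keratin of basal and stratified epithelia, was at 652 and 408 CPM in THC libraries, against 11.5 and 5.74 CPM in LC libraries, a log2 fold change of 5.96 ± 0.56, SE (adjusted p = 0.000163). Its partner keratin Krt14 was at 1162 and 628 CPM in THC libraries, against 34.8 and 10.6 CPM in LC libraries (log2 fold change 5.31 ± 0.61, SE, adjusted p = 0.000526). Both keratins were more than an order of magnitude higher in each THC library than in either LC library. In these bulk libraries more cells of a type and more RNA of that type per cell cannot be told apart.

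Trp63 (chr16:25683763-25892102, + strand), the master transcription factor of basal epithelial identity, was at 170.1 and 249.8 CPM in THC libraries, against 9.54 and 6.46 CPM in LC libraries (log2 fold change 4.73 ± 0.35, SE, adjusted p = 3.83e-05). Snai2, a zinc-finger repressor expressed in basal cells, was at 66.6 and 74.98 CPM in THC and at 2.17 and 0.933 CPM in LC (log2 fold change 5.57). The Notch ligand Jag2 was at 94.5 and 110.5 CPM in THC and at 4.99 and 3.95 CPM in LC (log2 fold change 4.53). No THC library overlapped an LC library for these genes. With 2 libraries a group, unchanged genes can also fail to overlap. Such statements, here and below, describe the values and are no test. Among the others, with log2 fold changes in brackets, Col17a1 (5.20), Cdh3 (5.38), Nrg1 (4.99), Id4 (5.17), Krt17 (4.07) and Dkk3 (3.24) were called higher. Members not called included Dst (0.24), Itgb4 (0.66), Itga6 (0.91), Itga3 (0.50) and Egfr (0.51). With each of the 4 libraries left out in turn, 13 to 15 members were called higher, and the calls of Krt5, Krt14, Trp63, Snai2, Jag2 and Dkk3 remained in each case.

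Trp63 stood between the luminal and the basal populations in its values. It was at 170.1 and 249.8 CPM in THC, at 66.3 and 38.6 CPM in TLC, at 613 and 649 CPM in TBC and at 493 and 539.6 CPM in BC. Over all genes 1.61% were called between THC and TLC, and THC was called higher than TLC in 1.52%, than TBC in 2.57% and than BC in 5.0%. THC exceeded TLC for Trp63 (log2 fold change 2.01, adjusted p = 0.011) and Jag2 (2.67, adjusted p = 0.00304). The difference missed the threshold for Krt5 (2.03, adjusted p = 0.0622) and Krt14 (0.76, adjusted p = 0.681). The strand setting of the counting is not given in the sources used here, and Krt5 overlaps the antisense gene Gm44323, so reads of both may be joined in its count.

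**Figure D2:**
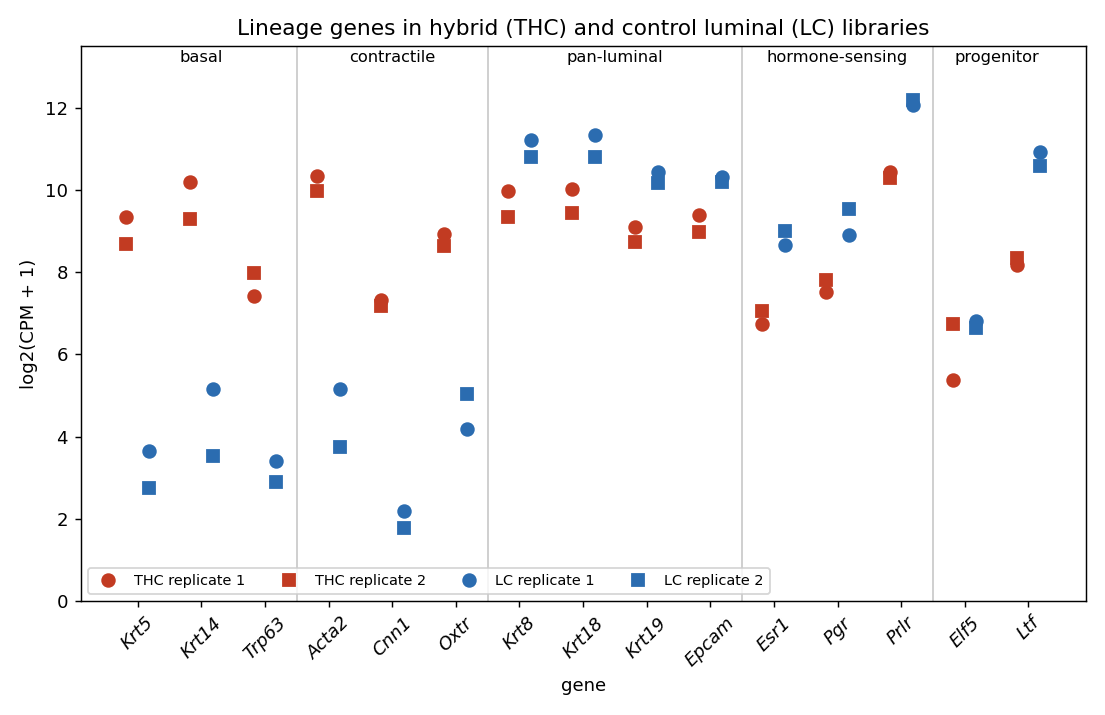
Level of 15 lineage genes in each library, as log2(CPM + 1), with THC left of LC. The basal and contractile genes lie higher in both THC libraries than in both LC libraries, the luminal keratins and hormone receptors lie lower, and the Elf5 values of THC and LC overlap.

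The contractile apparatus of myoepithelium was higher in THC. Of 20 smooth-muscle contractile genes, 17 were called higher and 0 lower, with a list median of 3.66. Acta2 (chr19:34241090-34255590, - strand), smooth-muscle actin, was at 1292 and 997 CPM in THC libraries, against 34.9 and 12.4 CPM in LC libraries (log2 fold change 5.60 ± 0.53, SE, adjusted p = 0.000131). Cnn1, the actin-binding calponin, was at 159.6 and 143 CPM in THC and at 3.58 and 2.44 CPM in LC (5.67 ± 0.44, SE, adjusted p = 4.86e-05). Neither gene had an LC library near a THC library. The receptor Oxtr, through which oxytocin triggers milk ejection, was at 488 and 394 CPM in THC libraries, against 17.1 and 31.7 CPM in LC libraries (log2 fold change 4.17, adjusted p = 0.00018).

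Also higher were Tpm2 (4.90), Tagln (3.62), Myh11 (5.08), Mylk (4.95), Myl9 (4.88) and Actg2 (7.05), where Tagln overlaps Gm48529 and Pcsk7 on the opposite strand. The coactivator Myocd, which drives smooth-muscle genes together with Srf, was called higher (3.56), and Srf itself was not (0.14, adjusted p = 0.808). Vcl and Pdlim7 were not called either. Leave-one-out fits called 13 to 17 members higher, and Acta2, Cnn1, Tpm2 and Tagln kept their calls. Acta2 was at 55.6 and 57.97 CPM in TLC, at 3643 and 2742 CPM in TBC and at 1510.1 and 2684 CPM in BC. The log2 fold change of THC over TLC was 4.33 for Acta2 (adjusted p = 0.00374) and 4.55 for Cnn1 (adjusted p = 0.00129).

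The promoters of the contractile genes were searched for the CArG box, the binding motif of Srf, on both strands from 250 bases before to 50 bases after each RefSeq start (build GRCm38.p6). Only exact matches to CCWWWWWWGG, where W is A or T, were counted. Variants of the box were not searched, so members without a match may still hold one. A match was found in 3 of the 16 members in the promoter table, Myl9, Srf and Vcl, or 18.8%, against 1.81% of 27025 genes in that table. Of these 3 only Myl9 was called, and 12 of the 13 members without a match were called higher. The stretches of Myl9 (chr2:156775273-156775342, + strand) and Vcl (chr14:20929148-20929210, + strand) are shown with the CArG box in capitals, since the first belongs to a called and the second to an uncalled member.
Myl9: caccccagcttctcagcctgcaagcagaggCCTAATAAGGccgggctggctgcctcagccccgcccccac
Vcl: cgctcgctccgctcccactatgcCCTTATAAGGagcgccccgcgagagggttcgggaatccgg

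Pan-luminal genes remained abundant in THC, and most were called lower than in LC. Of 22 tested, 0 were called higher and 14 lower, 22 had a negative log2 fold change, and the median was -1.19. Krt8, the type II keratin of simple epithelia, was at 1005 and 649 CPM in THC libraries, against 2386 and 1769.5 CPM in LC libraries (log2 fold change -1.33 ± 0.32, SE, adjusted p = 0.0197). Its partner Krt18 was at 1044 and 691 CPM in THC and at 2581 and 1773 CPM in LC (-1.33 ± 0.38, SE, adjusted p = 0.0395). Krt19 was at 544 and 426 CPM in THC and at 1385 and 1146 CPM in LC (-1.38 ± 0.27, SE, adjusted p = 0.00651). The keratin values of THC and LC did not overlap. Krt8 overlaps Gm36026 on the opposite strand.

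Epcam, the epithelial cell adhesion molecule, was at 673 and 504 CPM in THC and at 1277 and 1162 CPM in LC (-1.05, adjusted p = 0.028). The keratin, the transcription factor and the claudins Krt7 (-1.71), Elf3 (-1.36), Cldn3 (-1.33) and Cldn7 (-1.21) were called lower, and Gata3, Grhl2, Esrp1, Ehf, Cd24a, Cdh1, Cldn4 and Muc1 were not called. In the basal populations the luminal keratins stood lower, with Krt8 at 361 and 241 CPM in TBC and 417 and 317 CPM in BC, and Krt19 at 102 and 68.6 CPM in TBC and 101 and 91.2 CPM in BC. THC thus held RNA of both keratin classes, each at a level outside the range of the LC libraries.

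The number of pan-luminal genes called lower was 8 without THC replicate 1, 6 without THC replicate 2, 8 without LC replicate 1 and 9 without LC replicate 2. In what follows, the value in brackets after a left-out library is the adjusted p without it. Krt18 lost its call with any library left out (up to 0.219) and Epcam with any library left out (up to 0.177). Krt8 lost its call without THC replicate 2 (0.15) or LC replicate 1 (0.0969) and Krt19 without THC replicate 2 (0.0671), while Krt7, Elf3, Cldn3 and Cldn7 kept theirs.

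Most hormone-sensing genes were called lower in THC. Of 14 tested, 8 were called lower and 0 higher, with a median of -1.16. Their summed level was 2813 and 2666 CPM in THC and 7293 and 8503 CPM in LC. It was 1961 and 2306 CPM in TLC, so TLC also stood below LC. Esr1 (chr10:4611593-5005614, + strand), the estrogen receptor, was at 105 and 132 CPM in THC libraries, against 400 and 511 CPM in LC libraries (log2 fold change -1.94 ± 0.24, SE, adjusted p = 0.000563). Pgr, the progesterone receptor, was at 183 and 223 CPM in THC and at 477 and 744 CPM in LC (-1.59 ± 0.30, SE, adjusted p = 0.00609). Prlr, the prolactin receptor, was at 1393 and 1249.8 CPM in THC and at 4247 and 4683 CPM in LC (-1.76, adjusted p = 0.00454). For these receptors each THC library lay below each LC library.

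Foxa1, a pioneer factor for the estrogen receptor, was called lower (-1.28), as were the paracrine signals Wnt4 (-1.52) and Areg (-1.01) and the genes Prom1 (-1.69) and Mlph (-1.59). Tnfsf11, a progesterone-induced ligand, was at 0.775 and 11.3 CPM in THC and at 0.867 and 1.22 CPM in LC and was not called (adjusted p = 0.126), but it was called higher without THC replicate 1 (adjusted p = 0.0317) and with no low-count filter (0.000962). Greb1, an estrogen-induced gene, was at 20.1 and 16.2 CPM in THC and at 4.23 and 63.7 CPM in LC and was not called with all libraries (adjusted p = 0.578), but was called lower without LC replicate 1 (log2 fold change -1.82, adjusted p = 0.00729) and higher without LC replicate 2 (2.06, adjusted p = 0.0309). Leave-one-out fits called 4 members lower without THC replicate 1, 5 without THC replicate 2, 8 without LC replicate 1 and 6 without LC replicate 2. Pgr lost its call without THC replicate 1 (0.0568), Mlph without THC replicate 1 (0.0522), Wnt4 without THC replicate 2 (0.0527) and Areg without THC replicate 1 (0.0673), THC replicate 2 (0.135) or LC replicate 1 (0.1), while Esr1 and Prlr were called in all 4 fits.

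Of 18 luminal progenitor and alveolar genes tested, 1 was called higher and 1 lower, with a median of -0.73. Each is 5.56% of the list, against 8.91% of all genes tested called higher and 4.0% lower. DESeq2 called 1 higher and 6 lower, and the edgeR fit with no low-count filter 1 and 8. Ltf, the iron-binding milk protein lactotransferrin, was at 289 and 326 CPM in THC libraries, against 1923 and 1538 CPM in LC libraries (log2 fold change -2.49 ± 0.42, SE, adjusted p = 0.00322). Elf5, the transcription factor of alveolar commitment, was at 40.3 and 106 CPM in THC and at 111 and 98.9 CPM in LC, so the groups overlapped (-0.49, adjusted p = 0.518). Kit, a receptor of luminal progenitors, was at 82.9 and 269 CPM in THC and at 616 and 559.9 CPM in LC and missed the threshold (-1.72, adjusted p = 0.0574). The integrin Itgb3 (1.66) was called higher, but not without THC replicate 1 (0.0903), THC replicate 2 (0.169) or LC replicate 2 (0.196). Without THC replicate 2 or LC replicate 2, 3 members were called lower.

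Milk protein genes did not move as a block. Of 12 tested of 16, 2 were called higher and 0 lower, with a median of 0.37, and Wap, Csn1s2b, Glycam1 and Olah had too few counts to be tested. Csn1s2a, a casein, was at 86.8 and 146 CPM in THC libraries, against 0.867 and 0.215 CPM in LC libraries (log2 fold change 7.86 ± 1.14, SE, adjusted p = 0.00369), and Csn1s2a stayed called with each library left out. Csn2, beta-casein, was at 336 and 481 CPM in THC and at 22.8 and 5.74 CPM in LC (4.87 ± 1.25, SE, adjusted p = 0.0476), and its call was lost with any library left out (up to 0.175). Csn1s1 was at 558 and 686 CPM in THC and at 397 and 32.5 CPM in LC (1.54, adjusted p = 0.51) and was not called, nor was Csn3 (-0.52, adjusted p = 0.647). Csn1s2a was at 2.28 and 19.5 CPM in TLC, at 15.5 and 25.7 CPM in TBC and at 0.784 and 0.0850 CPM in BC.

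Genes of mitosis were higher in THC. They encode cyclins, kinases, motors and checkpoint proteins that condense and segregate chromosomes, and promoters of such genes often carry a cell cycle homology region (CHR), which is bound by the complexes that time their transcription. Of 28 mitosis genes, 26 were called higher and 0 lower, with a median of 3.08. The members not called were Aurka (0.22) and Kif11 (2.10). The CHR, searched as TTTGAA or TTCGAA on both strands in the same promoter windows, stood in 20 of the 24 members in the table, or 83.3%, against 21.7% of 27025 genes. Of the 20 members with a match 18 were called higher, as were the 4 without one, Ccnb1, Cenpe, Nusap1 and Birc5.

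The CHR of 5 called members is shown as examples, each within 30 bases before the start site. It is written 5′ to 3′ on the strand of the gene with the motif in capitals. Its distance before the start was 15 bases in Cdk1 (chr10:69352913-69352957, - strand), 18 in Cdc20 (chr4:118437344-118437391, - strand), 30 in Prc1 (chr7:80294416-80294475, + strand), 30 in Ncapg (chr5:45669865-45669924, + strand) and 29 in Ube2c (chr2:164769870-164769928, + strand), where the motif reads on the opposite strand. Cdk1 held a further match. Prc1 had a match 5 bases before another listed start, which may be the same site. Top2a, not shown, also had a match close to its start, at 23 bases.
Cdk1: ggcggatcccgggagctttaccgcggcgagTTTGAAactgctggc
Cdc20: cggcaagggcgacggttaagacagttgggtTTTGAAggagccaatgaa
Prc1: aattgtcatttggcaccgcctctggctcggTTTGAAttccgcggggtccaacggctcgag
Ncapg: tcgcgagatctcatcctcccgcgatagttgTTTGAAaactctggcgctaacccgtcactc
Ube2c: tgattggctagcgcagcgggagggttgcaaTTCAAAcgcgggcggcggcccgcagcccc

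Mki67 (chr7:135689784-135716361, - strand), the proliferation marker that coats mitotic chromosomes, was at 396 and 499 CPM in THC libraries, against 28.3 and 53.4 CPM in LC libraries (log2 fold change 3.45 ± 0.56, SE, adjusted p = 0.00457). Ccnb1, the cyclin that activates Cdk1 at mitotic entry, was at 41.5 and 46.7 CPM in THC and at 2.49 and 2.73 CPM in LC (4.07 ± 0.69, SE, adjusted p = 0.00515). Ube2c, the ubiquitin conjugase that works with Cdc20 to end mitosis, was at 39.1 and 34.96 CPM in THC and at 3.47 and 3.73 CPM in LC (3.35 ± 0.53, SE, adjusted p = 0.00256). The THC libraries were close to each other and far above both LC libraries for these genes, and Mki67, Ccnb1, Ube2c and Cenpe were called in every leave-one-out fit. Cdk1 was at 29.1 and 31.4 CPM in THC and at 1.52 and 3.37 CPM in LC (3.59, adjusted p = 0.0285).

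The number of mitosis genes called was 13 without THC replicate 1, 11 without THC replicate 2, 7 without LC replicate 1 and 10 without LC replicate 2, while the median log2 fold change was between 2.66 and 3.37. Mki67 was at 582 and 466 CPM in TLC, and the log2 fold change of THC over TLC was -0.23 (adjusted p = 0.956). It was at 11.4 and 15.7 CPM in BC, and at 69.9 and 251 CPM in TBC, where the libraries differed from each other.

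**Figure D3:**
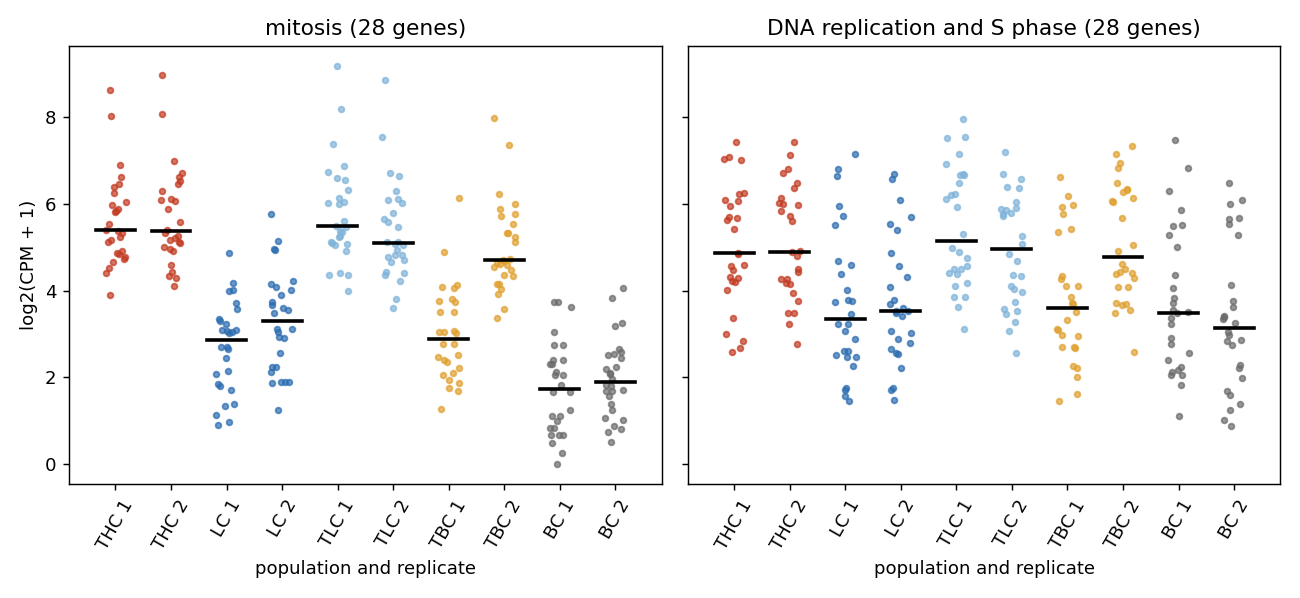
Level of the mitosis genes and the DNA replication genes in each library, as log2(CPM + 1), for THC, LC, TLC, TBC and BC. Each point is a gene and the bar is the median, which for mitosis was 5.39 and 5.38 in THC and 2.87 and 3.30 in LC, and for replication 4.86 and 4.90 in THC and 3.34 and 3.53 in LC.

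DNA replication and S-phase genes were in part higher in THC. Of 28 tested, 12 were called higher and 1 lower, with a median of 1.65. Rrm2, a subunit of the reductase that makes deoxynucleotides, was at 65.9 and 47.6 CPM in THC libraries, against 3.79 and 7.47 CPM in LC libraries (log2 fold change 3.30 ± 0.62, SE, adjusted p = 0.00904). The polymerase subunit and the other reductase subunit Pola1 (1.78) and Rrm1 (1.68) and the helicase subunits Mcm2 (1.79), Mcm3 (2.66), Mcm4 (1.25), Mcm5 (2.76) and Mcm7 (1.62) were called higher, and Mcm6 and Pcna were not. Gins2, a component of the replicative helicase, went the other way, at 49.97 and 51.8 CPM in THC and at 140.5 and 102 CPM in LC (-1.25, adjusted p = 0.0144). Gins2 overlaps Gse1, and Mcm7 overlaps Ap4m1 and Cops6, on the opposite strand.

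Replication genes called higher numbered 6 without THC replicate 1, 3 without THC replicate 2, 2 without LC replicate 1 and 2 without LC replicate 2. Rrm2 lost its call without LC replicate 1 (0.0615), Rrm1 without LC replicate 2 (0.062), Pola1 without LC replicate 2 (0.0574), Mcm7 without THC replicate 2 (0.0573) or LC replicate 1 (0.0584) and Gins2 without THC replicate 1 (0.0854), THC replicate 2 (0.0859) or LC replicate 1 (0.0857).

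Of 18 cyclin D genes and cell cycle brakes, 2 were called higher and 1 lower, with a median of 0.40. These are 11.1% and 5.56% of the list, near the 8.91% and 4.0% of all genes tested. Ccnd2, a D-type cyclin, was at 252 and 138 CPM in THC libraries, against 5.75 and 1.36 CPM in LC libraries (log2 fold change 5.83 ± 0.85, SE, adjusted p = 0.00392), and Ccnd2 was called with each library left out. The other D cyclins Ccnd1 (0.35) and Ccnd3 (-0.35) and the inhibitors Cdkn1a (-0.46) and Cdkn1b (0.01) were not called. Cdk4, a kinase activated by D cyclins, was called higher (1.03), but not without THC replicate 1 (0.239), LC replicate 1 (0.171) or LC replicate 2 (0.0852). Gadd45a, a stress-induced brake, was called lower (-1.36), but not without THC replicate 2 (0.0734) or LC replicate 2 (0.0612).

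Genes of the embryonic mammary bud and of plasticity were in part higher in THC. Of 19 tested of 20, 7 were called higher and 0 lower, with a median of 2.13. Bcl11b, a zinc-finger transcription factor of basal stem cells, was at 56.6 and 45.2 CPM in THC libraries, against 1.08 and 0.144 CPM in LC libraries (log2 fold change 6.51 ± 0.64, SE, adjusted p = 0.000258). Pthlh, a signal from embryonic mammary epithelium to its mesenchyme, was at 16.7 and 18.6 CPM in THC and at 0.434 and 0.215 CPM in LC (5.79 ± 0.41, SE, adjusted p = 3.35e-05). Lgr5, a Wnt-amplifying receptor and stem cell marker, was at 102 and 102 CPM in THC and at 7.70 and 3.52 CPM in LC (4.21, adjusted p = 0.000292). Every THC library was well above every LC library for these genes.

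The imprinted noncoding RNA H19 had 342 counts over both THC libraries and 3 over both LC libraries, a scaled ratio of 152 with a 95% counting interval of 51.5 to 739. Edar (4.43), Tbx2 (2.53) and Hmga2 (5.52) were called higher. Sox11 was at 30.6 and 9.72 CPM in THC and at 1.41 and 0.144 CPM in LC and missed the threshold (adjusted p = 0.0687), and Sox9, Sox10, Sox4, Bcl11a and Msx1 were not called. Lin28b had no counts in THC or LC. Leave-one-out fits called 6 to 8 members. Lgr5 was at 118 and 62.2 CPM in TLC, where the log2 fold change of THC over TLC was 0.18 (adjusted p = 0.948), and at 423 and 592 CPM in BC.

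In the Notch pathway, in which ligands on a cell activate receptors on its neighbour, the called genes were mostly ligands. Of 21 tested, 4 were called higher and 1 lower, with a median of 0.29. Dll1 was at 85.6 and 83.96 CPM in THC libraries, against 10.3 and 5.24 CPM in LC libraries (log2 fold change 3.47 ± 0.33, SE, adjusted p = 0.000131). Jag1 was at 259 and 174 CPM in THC and at 102 and 98.6 CPM in LC (1.11, adjusted p = 0.0239), and Jag2 is given above. Dll1 and Jag2 were called in all leave-one-out fits, and Jag1 was not without THC replicate 1 (0.186), LC replicate 1 (0.0878) or LC replicate 2 (0.126).

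Among the receptors, Notch4 was called higher (1.68), but not without THC replicate 1 (0.0651), THC replicate 2 (0.11) or LC replicate 2 (0.169), and Notch1 (-0.11), Notch2 (-0.66) and Notch3 (-0.84) were not called. The target genes Hes1 (-0.62), Hey1 (0.08) and Nrarp (0.01) were not called either. The coactivator Maml1 was called lower (-0.71), but not without THC replicate 1 (0.191), THC replicate 2 (0.0995) or LC replicate 1 (0.193). Notch4 is also expressed by endothelium, and the endothelial markers given below were higher in THC. Their part in the Notch4 value was not tested.

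Wnt ligands and receptors moved in both directions. Of 21 tested of 24, 6 were called higher and 3 lower, with a median of 0.03. Wnt10a was at 21.7 and 10.7 CPM in THC libraries, against 0.325 and 0.0718 CPM in LC libraries (log2 fold change 6.36 ± 0.75, SE, adjusted p = 0.000472), and Wnt6 (4.18) was also higher. Wnt7b was at 15.1 and 17.4 CPM in THC and at 70.1 and 61.7 CPM in LC (-2.0 ± 0.29, SE, adjusted p = 0.0012), and Wnt4 (-1.52) and Wnt5b (-1.13) were also lower. The receptors Ror1 (2.18), Fzd7 (1.79), Fzd2 (1.40) and Fzd3 (0.85) were higher in THC. The called ligands thus split between THC and LC, and the called receptors were all higher in THC. Wnt6 lost its call without LC replicate 2 (0.0559) and Wnt5b without THC replicate 1 (0.201), THC replicate 2 (0.119) or LC replicate 1 (0.224). The list's calls fell to 4 higher and 1 lower at the least, both without THC replicate 2.

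Most feedback genes and targets of Wnt signalling were called higher in THC. Of 21 tested of 25, 14 were called higher and 0 lower, with a median of 2.35, and leave-one-out fits called 10 to 14. Axin2, a negative regulator induced by the pathway, was at 16.7 and 20.5 CPM in THC libraries, against 4.34 and 2.44 CPM in LC libraries (log2 fold change 2.49 ± 0.35, SE, adjusted p = 0.00116). The secreted inhibitor Wif1 was at 32.5 and 49.3 CPM in THC and at 1.95 and 1.01 CPM in LC (4.86 ± 0.56, SE, adjusted p = 0.000721). Both were called in all leave-one-out fits, as were Lgr5 and Dkk3. Other secreted inhibitors or modulators called higher were Sfrp1 (3.97), Sfrp2 (1.49), Dkk2 (4.41), Dkk3 (3.24) and Apcdd1 (2.35).

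The intracellular inhibitors Nkd1 (4.87) and Nkd2 (4.54), the transcription factor Tcf7 (2.40) and the membrane proteins Lgr4 (1.34) and Znrf3 (1.14) were also called higher. Sfrp4 had 54 counts in THC and 2 in LC, a scaled ratio of 35.9 (95% counting interval 9.48 to 304). Myc (0.35) and Ccnd1 (0.35) were not called. Axin2 was at 4.39 and 5.37 CPM in TLC, and THC exceeded TLC (1.93, adjusted p = 0.0213). The summed level of the list was 1481 and 1648 CPM in THC, 838 and 654 CPM in LC and 1452 and 1205 CPM in TLC. It was highest in the basal populations, at 2855 and 3020 CPM in TBC and 2663 and 3507 CPM in BC.

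Ligands and receptors of the EGF family divided as well. Of 26 tested with their MAPK feedback genes, 6 were called higher and 4 lower, with a median of 0.14. Nrg1, a neuregulin ligand, was at 197 and 94.6 CPM in THC libraries, against 4.44 and 4.59 CPM in LC libraries (log2 fold change 4.99 ± 0.58, SE, adjusted p = 0.000849), and Nrg2 (3.10) was also higher. The neuregulin receptor Erbb3 was at 166 and 216 CPM in THC and at 371 and 527 CPM in LC (-1.23 ± 0.24, SE, adjusted p = 0.00633). The neuregulin receptor Erbb4 was at 5.81 and 15.3 CPM in THC and at 50.7 and 36.2 CPM in LC (-1.94, adjusted p = 0.0122). The called neuregulins and the called neuregulin receptors thus changed in opposite directions. Another neuregulin, Nrg4, was not called. It was lower with no low-count filter (-0.94, adjusted p = 0.046) and after thinning to the smallest library (-1.14, adjusted p = 0.0402). Egfr and Erbb2 were not called.

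Of the feedback genes and targets, Etv5 (2.12), Spred1 (0.88) and Spry1 (0.80) were called higher and Dusp4 (-1.15) lower. Ereg, an EGF receptor ligand, was at 38.7 and 6.07 CPM in THC and at 0.217 and 1.01 CPM in LC (4.97, adjusted p = 0.0331). Erbb3 lost its call without THC replicate 1 (0.0653), Erbb4 without THC replicate 1 (0.0675) or LC replicate 1 (0.0611), Ereg without THC replicate 1 (0.115), LC replicate 1 (0.149) or LC replicate 2 (0.113), Etv5 without THC replicate 2 (0.0538) and Dusp4 without THC replicate 1 (0.105), THC replicate 2 (0.131) or LC replicate 1 (0.118), while Nrg1 and Nrg2 kept theirs. The list's calls fell to 3 higher without THC replicate 2 or LC replicate 2 and to 0 lower without THC replicate 1.

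Markers of endothelial, immune and fibroblast cells were in part higher in THC. All 20 endothelial markers had a positive log2 fold change, 8 were called higher and 0 lower, and the median was 2.19. Their summed level was 1224 and 1260 CPM in THC and 538 and 218 CPM in LC. Pecam1, the endothelial adhesion molecule, was at 183 and 161 CPM in THC libraries, against 84.5 and 19.96 CPM in LC libraries (log2 fold change 1.72 ± 0.74, SE, adjusted p = 0.183) and missed the threshold, except without LC replicate 1 (adjusted p = 0.0492). Eng (1.40), Mmrn2 (2.23), Sox18 (2.27), Egfl7 (1.73), Tie1 (2.65) and Cldn5 (3.11) were among those called. The LC libraries differed from each other, and 17 endothelial markers were called without LC replicate 1, 0 without LC replicate 2, 1 without THC replicate 1 and 0 without THC replicate 2.

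Of 16 immune markers tested of 20, 9 were called higher and 0 lower (median 2.59), with a summed level of 395 and 163 CPM in THC and 63.2 and 51.97 CPM in LC. The macrophage gene Adgre1 was at 13.9 and 3.24 CPM in THC and at 0.217 and 0.574 CPM in LC (4.22, adjusted p = 0.00812), and Lyz2 was at 106 and 28.1 CPM in THC and at 3.04 and 1.79 CPM in LC (4.78, adjusted p = 0.0264). The pan-leukocyte gene Ptprc (3.34) was also higher, the T cell gene Cd3e (-0.45) and the B cell gene Cd79a (-1.06) were not called, and Cd79b had 0 counts in THC. Igkc, the immunoglobulin kappa chain of plasma cells, had 4 and 0 counts in THC and 3353 and 57 in LC and was not called (adjusted p = 0.147). THC replicate 1 held the higher immune level of the pair. Immune markers called were 5 without THC replicate 1, 6 without THC replicate 2, 5 without LC replicate 1 and 3 without LC replicate 2.

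Of 15 fibroblast markers, 10 were called higher and 0 lower (median 3.50), with a summed level of 1742 and 2600 CPM in THC and 370.3 and 309 CPM in LC. The collagen Col1a1 was at 244 and 719.9 CPM in THC libraries, against 7.80 and 3.66 CPM in LC libraries (log2 fold change 6.43 ± 0.93, SE, adjusted p = 0.0038), and Col1a2 (6.39) and Col3a1 (5.97) followed. Postn, a matricellular protein, was at 786 and 605 CPM in THC and at 44.7 and 13.9 CPM in LC (4.58), and at 1204 and 1604 CPM in BC. Pdgfra (1.08) and Dcn (-1.35) were not called, and Dcn was at 57.7 and 152 CPM in THC and at 269 and 274 CPM in LC. Called fibroblast markers numbered 8 without THC replicate 1, 6 without THC replicate 2, 11 without LC replicate 1 and 6 without LC replicate 2.

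Of 11 pericyte markers tested of 12, 3 were called higher (Pdgfrb, Cspg4 and Des) and 0 lower (median 2.21), with a summed level of 524 and 395 CPM in THC and 348 and 299.9 CPM in LC, and 1 was called without LC replicate 2. Of 5 adipocyte markers tested of 10, Lpl (2.69) was called higher, with a summed level of 205 and 143 CPM in THC and 57.1 and 21.9 CPM in LC, and Adipoq, Plin1, Cidec and Retn had 0 counts in THC. Of 10 nerve markers tested of 12, Ngfr (5.08), Ncam1 (2.39) and Egr2 (2.17) were called higher and Mbp (-1.56) and Erbb3 (-1.23) lower. Ngfr was at 9.30 and 12.3 CPM in THC and at 0.542 and 0.144 CPM in LC, and at 18.9 and 28.5 CPM in TBC. The erythrocyte list had 1 of 8 members tested and no call. The skeletal muscle list had 2 of 11 tested, and Myh2 was called with 26 counts in THC and 3 in LC. Lpl lost its call without THC replicate 1 (0.103), THC replicate 2 (0.107) or LC replicate 2 (0.196), Myh2 without THC replicate 1 (0.132), THC replicate 2 (0.115) or LC replicate 2 (0.257) and Mbp without THC replicate 1 (0.0533) or THC replicate 2 (0.0541). The part of these cell types in the differences between THC and LC was not tested.

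**Figure D4:**
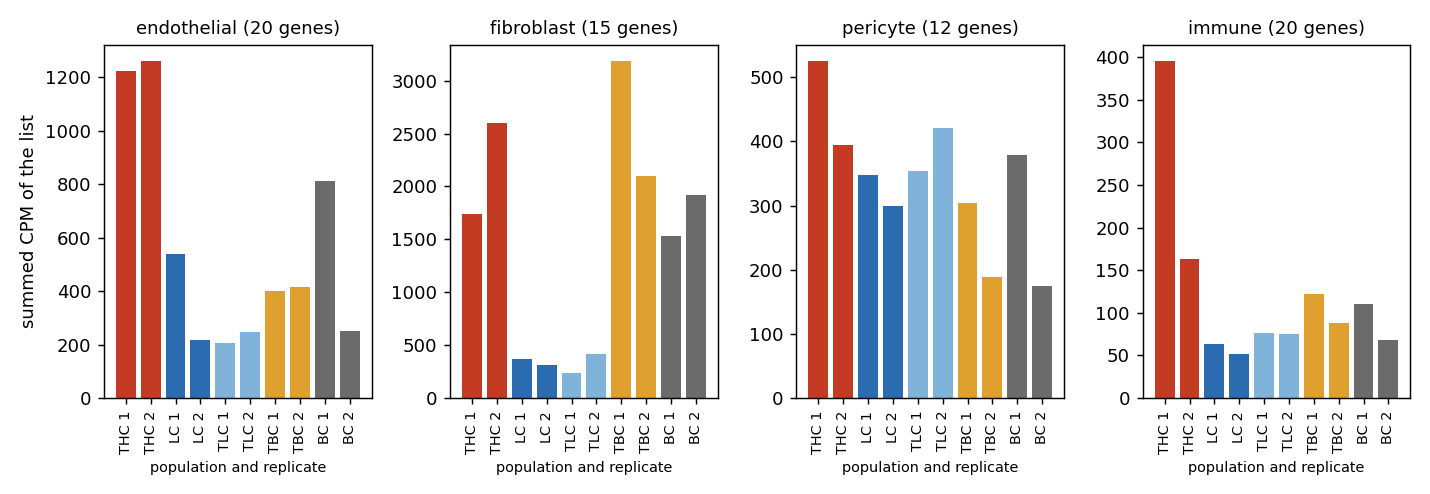
Summed CPM of the endothelial, fibroblast, pericyte and immune marker lists in each library of THC, LC, TLC, TBC and BC. Both THC libraries stand above every other library for the endothelial and immune lists, while TBC and BC libraries reach the THC range for the fibroblast list, which includes Postn.

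Most mesenchymal genes were called higher in THC, beside those fibroblast and endothelial markers, whose part in the values was not tested. Of 21 regulators of epithelial-mesenchymal transition and mesenchymal genes, 13 were called higher and 0 lower (median 3.23). Fn1, fibronectin, was at 289 and 280.4 CPM in THC libraries, against 7.80 and 6.96 CPM in LC libraries (log2 fold change 5.27 ± 0.47, SE, adjusted p = 0.000142), at 179 and 71.03 CPM in TBC and at 15.9 and 24.3 CPM in BC. Axl, a receptor tyrosine kinase, was at 158 and 111 CPM in THC and at 9.54 and 12.6 CPM in LC (3.58, adjusted p = 9.52e-05). Sparc, a secreted matrix protein, was at 849.9 and 598 CPM in THC and at 29.5 and 8.83 CPM in LC (5.25, adjusted p = 0.000472), and at 799.8 and 1261 CPM in BC. The transcription factors Snai2 (5.57), Twist1 (3.17), Zeb2 (2.89) and Prrx1 (4.31), the intermediate filament Vim (3.65) and the cadherins Cdh2 (5.40) and Cdh11 (5.42) were called, and Snai1 (0.22), Zeb1 (1.44) and Tgfb1 (-0.30) were not. Leave-one-out fits called 9 to 12 members higher.

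Among 30 integrins, laminins and basement membrane genes, 14 were called higher and 1 lower (median 0.81), and leave-one-out fits called 12 to 13 higher. Itga9, an integrin chain, was at 20.5 and 33.1 CPM in THC libraries, against 3.14 and 3.16 CPM in LC libraries (log2 fold change 3.12 ± 0.29, SE, adjusted p = 0.000109). Col7a1, the anchoring fibril collagen, was at 165 and 258 CPM in THC and at 9.86 and 8.26 CPM in LC (4.55 ± 0.43, SE, adjusted p = 0.000131). Hspg2, perlecan, was at 465 and 517 CPM in THC and at 67.5 and 48.5 CPM in LC (3.08, adjusted p = 0.000131). The laminin chains Lama1 (4.53), Lama3 (2.32) and Lamb3 (1.95) and the type IV collagens Col4a1 (3.46) and Col4a2 (3.78) were also higher. Itgb6, an epithelial integrin chain, was lower, at 18.2 and 19.2 CPM in THC and at 55.2 and 56.9 CPM in LC (-1.58, adjusted p = 0.00253). Itgb1, Itgb4, Itga6 and Lama5 were not called.

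Tight and adherens junction genes were in part lower in THC. Of 24 tested, 1 was called higher and 10 lower (median -0.94). Cldn3, a claudin that seals tight junctions, was at 62.4 and 81.9 CPM in THC libraries, against 193 and 172 CPM in LC libraries (log2 fold change -1.33 ± 0.22, SE, adjusted p = 0.00264). Ocln, occludin, was at 61.2 and 67.4 CPM in THC and at 239 and 164 CPM in LC (-1.64, adjusted p = 0.00628). The junction proteins Cgn (-1.54), Cldn8 (-1.36), Crb3 (-1.39) and Tjp3 (-1.21) were also lower. Cdh3, the cadherin of basal cells, was the member called higher, at 148 and 134 CPM in THC and at 5.20 and 1.79 CPM in LC. Cdh1 missed the threshold (-0.87, adjusted p = 0.0542), and Ctnnb1, Tjp1 and F11r were not called.

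Junction genes called lower numbered 3 without THC replicate 1, 6 without THC replicate 2, 5 without LC replicate 1 and 5 without LC replicate 2. Ocln lost its call without THC replicate 1 (0.0511) and Cgn without THC replicate 1 (0.0687) or LC replicate 2 (0.0629), and Cldn3, Cldn7 and Cdh3 kept theirs.

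Desmosomal genes differed by family member. Of 13 tested, 4 were called higher and 2 lower (median -0.14). Dsc3, a desmosomal cadherin of stratified epithelia, was at 37.96 and 26.9 CPM in THC libraries, against 0.325 and 0.144 CPM in LC libraries (log2 fold change 7.11 ± 0.54, SE, adjusted p = 4e-05). Dsg3, another of that kind, was at 34.1 and 23.7 CPM in THC and at 0.867 and 0.215 CPM in LC (5.81 ± 0.62, SE, adjusted p = 0.000265). The more widely expressed relatives Dsc2 (-0.65) and Dsg2 (-0.48) were not called. The plaque protein Pkp1 (1.17) and the membrane protein Perp (1.38) were higher, and the plaque proteins Evpl (-1.83) and Pkp2 (-1.37) lower. Dsg3 was at 51.9 and 50.4 CPM in TLC, at 15.3 and 6.52 CPM in TBC and at 3.53 and 1.96 CPM in BC, so its highest values were in TLC. Pkp1 lost its call without LC replicate 1 (0.0593) and Pkp2 without THC replicate 1 (0.0639), THC replicate 2 (0.0965) or LC replicate 1 (0.0549).

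Of 18 genes of the YAP and TAZ pathway, 5 were called higher and 1 lower (median -0.01). These are 27.8% and 5.56% of the list, against 8.91% and 4.0% of all genes tested. The target Ccn2, a matricellular protein, was at 282 and 232 CPM in THC libraries, against 45.96 and 29.5 CPM in LC libraries (log2 fold change 2.77 ± 0.29, SE, adjusted p = 0.00018). Ptpn14 (1.88), Ajuba (1.60) and Tead1 (1.23) and Axl, given above, were higher, Nuak2 (-1.33) was lower, and Ccn1 (-0.72), Ankrd1 (0.00) and Yap1 (0.38) were not called, so the targets did not move together. Ajuba lost its call without THC replicate 2 (0.0807) or LC replicate 1 (0.0551), Tead1 without THC replicate 2 (0.0591) or LC replicate 2 (0.1) and Nuak2 without THC replicate 1 (0.13), THC replicate 2 (0.165) or LC replicate 2 (0.182).

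Of 24 TNF and NF-kappaB genes tested, 2 were called higher and 2 lower (median -0.63). Each is 8.33% of the list, against 8.91% of all genes tested called higher and 4.0% lower. DESeq2 called 2 higher and 7 lower, as did the edgeR fit with no low-count filter. Tnf, the inflammatory cytokine, was at 22.9 and 26.1 CPM in THC libraries, against 84.2 and 36.5 CPM in LC libraries (log2 fold change -1.29 ± 0.40, SE, adjusted p = 0.0579), and at 28.4 and 29.4 CPM in TLC. The difference missed the threshold, but the adjusted p was 0.0179 by DESeq2 and 0.000704 by edgeR with no low-count filter. The log2 fold change was -1.80 without LC replicate 2 and -0.57 without LC replicate 1. The noncanonical pathway subunits Nfkb2 (-0.95) and Relb (-0.96) were called lower, and the chemokine Ccl2 (3.51) and the macrophage growth factor Csf1 (0.90) higher. Nfkb2 lost its call without THC replicate 1 (0.0667), THC replicate 2 (0.0623) or LC replicate 1 (0.066), Relb without THC replicate 1 (0.0517), THC replicate 2 (0.0998) or LC replicate 2 (0.0616), Ccl2 without THC replicate 1 (0.0915) and Csf1 without THC replicate 2 (0.112), LC replicate 1 (0.0819) or LC replicate 2 (0.0856).

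Of 26 interferon-stimulated genes, 0 were called higher and 0 lower by edgeR (median 0.63). At an unadjusted p under 0.05 there were 4, and DESeq2 called 3 higher, limma-voom 1 and the edgeR fit with no low-count filter 4. Ifit3 was at 15.1 and 1.62 CPM in THC and at 0.217 and 0.790 CPM in LC, and its reads may be shared with the near-identical Ifit3b. Without THC replicate 2 the median was 1.08 and 3 genes were called higher, while without THC replicate 1 the median was -0.10 and 0 were called higher.

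The called antigen presentation genes split by class. Of 18 tested, 4 were called higher and 3 lower (median -0.41), while 5 had a positive and 13 a negative log2 fold change. The class II gene H2-Aa was at 46.1 and 22.7 CPM in THC libraries, against 4.88 and 4.16 CPM in LC libraries (log2 fold change 2.90 ± 0.40, SE, adjusted p = 0.00106), and H2-Ab1 (2.28) and H2-Eb1 (2.24) followed. The invariant chain Cd74 was at 158 and 64.05 CPM in THC and at 23.5 and 18.3 CPM in LC (2.39, adjusted p = 0.00195). The class II transactivator Ciita (0.46) was not called. Nor were the class II genes H2-DMa and H2-DMb1, both with a negative log2 fold change. Of the immune markers above, 9 were called higher in the same libraries, and Cd74 belongs to both lists. The part of immune cells in the class II values was not tested. The class I pathway genes Tap2 (-1.20), Tapbp (-0.69) and H2-Q4 (-0.95) were lower, and H2-K1, H2-D1 and B2m were not called. H2-Eb1 lost its call without THC replicate 1 (0.17) or LC replicate 1 (0.128), H2-Q4 without THC replicate 1 (0.0517), THC replicate 2 (0.169) or LC replicate 2 (0.181) and Tapbp with any library left out (up to 0.225). Genes of the H2 family are similar in sequence, so their counts are uncertain.

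Stress and lipid synthesis lists are given beside the 12.9% of all genes tested that were called. Of 22 immediate-early genes, 2 were called higher and 1 lower (median -0.26), and Fos was at 2406 and 2779 CPM in THC and at 2786 and 3069.6 CPM in LC (-0.18, adjusted p = 0.761). Egr2 was at 92.97 and 140 CPM in THC and at 30.03 and 22.3 CPM in LC (2.17, adjusted p = 0.000906), and at 409 and 523 CPM in BC. Egr3 (1.18) was also higher and Jund (-1.02) lower. Of 15 heat-shock chaperones, 0 were called higher and 0 lower by edgeR (median 0.15), with 3 at an unadjusted p under 0.05, 1 called higher by DESeq2 and 0 by limma-voom, and 1 called higher without LC replicate 2.

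Of 24 genes of the unfolded-protein response, 2 were called lower and 0 higher (median -0.54), and 4 were lower by DESeq2. Herpud1, which acts in degradation of misfolded proteins at the endoplasmic reticulum, was at 67.4 and 50.6 CPM in THC and at 238 and 152 CPM in LC (-1.74, adjusted p = 0.00238), and the stress sensor Ern1 (-0.97) was also lower. Of 22 p53 targets, 3 were called higher and 0 lower (median 0.05), namely Phlda3 (2.73), Perp (1.38) and Gtse1 (2.69), while Mdm2 (-0.05) and Cdkn1a (-0.46) were not. Of 23 cholesterol and fatty acid synthesis genes, 2 were called lower and 0 higher (median -0.31), namely Srebf2 (-0.83) and Me1 (-1.05), against 5 lower by DESeq2. Egr2, Herpud1, Phlda3, Perp and Gtse1 were called with each library left out. Egr3 was lost without LC replicate 2 (0.0509), Jund without THC replicate 2 (0.185), LC replicate 1 (0.133) or LC replicate 2 (0.0526), Ern1 with any library left out (up to 0.183), Srebf2 with any library left out (up to 0.286) and Me1 with any library left out (up to 0.237).

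Among called protein-coding genes whose higher group averaged 10 CPM or more and whose THC and LC libraries did not overlap, the 8 highest fold changes belonged to Igfbp2, Prkg2, Csn1s2a, Ccdc187, Gdnf, Mill1, Pdpn and Sorcs1. Pdpn, podoplanin, a surface glycoprotein of basal and lymphatic endothelial cells, was at 125 and 52.6 CPM in THC libraries, against 0.976 and 0.144 CPM in LC libraries (log2 fold change 7.43 ± 0.85, SE, adjusted p = 0.000997). Igfbp2, which binds insulin-like growth factors, had 484 counts in THC and 0 in LC, so it was at least 215-fold higher, by a floor of 3 counts over both LC libraries. It was at 67.8 and 20.9 CPM in THC, at 62.7 and 42.7 CPM in TBC and at 0.784 and 11.1 CPM in BC. Except for Csn1s2a and Pdpn, the remaining genes had 1 or 2 counts over both LC libraries.

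The kinase Prkg2 had 196 counts in THC and 1 in LC, a scaled ratio of 261 (95% counting interval 46.3 to 10360). Sorcs1, a sorting receptor that overlaps the antisense gene Gm45352, had a ratio of 222 (61.05 to 1843). Ccdc187 had a ratio of 371 (66.1 to 14720), Mill1 of 152 (26.7 to 6045) and the growth factor Gdnf of 128 (22.4 to 5098). These intervals cover counting error only, and the pooled ratios hide differences between the THC libraries. In THC replicates 1 and 2, Prkg2 was at 32.5 and 7.56 CPM, Sorcs1 at 11.2 and 20.6 CPM and Ccdc187 at 2.71 and 18.4 CPM. Mill1 was at 16.3 and 4.86 CPM and Gdnf at 19.8 and 3.04 CPM. Prkg2, Csn1s2a and Pdpn were called in all leave-one-out fits. Igfbp2 lost its call without THC replicate 1 (0.0936), LC replicate 1 (0.0904) or LC replicate 2 (0.0955), Gdnf without THC replicate 1 (0.141), LC replicate 1 (0.128) or LC replicate 2 (0.204), Mill1 without LC replicate 1 (0.0811) or LC replicate 2 (0.0944), Ccdc187 without THC replicate 2 (0.0954) or LC replicate 2 (0.0851) and Sorcs1 without LC replicate 2 (0.0742).

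The 8 lowest were Muc16, Abcc8, Kcnd2, Ctse, Alox15, Cxcl15, Pik3c2g and 5330417C22Rik. Muc16, a membrane mucin, was at 24.8 and 35.4 CPM in THC libraries, against 366 and 280.3 CPM in LC libraries (log2 fold change -3.40 ± 0.34, SE, adjusted p = 0.000142). Ctse, the protease cathepsin E, was at 15.9 and 15.6 CPM in THC and at 130.4 and 87.4 CPM in LC (-2.79, adjusted p = 0.000563). Abcc8, a regulatory subunit of potassium channels, was at 20.5 and 27.9 CPM in THC and at 233 and 117 CPM in LC (-2.83, adjusted p = 0.00284). All 3 genes were clearly separated between THC and LC. Muc16 was at 8.42 and 17.7 CPM in TLC, at 6.31 and 5.35 CPM in TBC and at 18.2 and 13.9 CPM in BC, so LC held its highest values. Muc16, Abcc8, Ctse, Cxcl15 and 5330417C22Rik stayed called with each library left out. Pik3c2g was lost without THC replicate 2 (0.0658), Kcnd2 without THC replicate 1 (0.0828), THC replicate 2 (0.0556) or LC replicate 1 (0.103) and Alox15 with any library left out (up to 0.162).

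**Figure D5:**
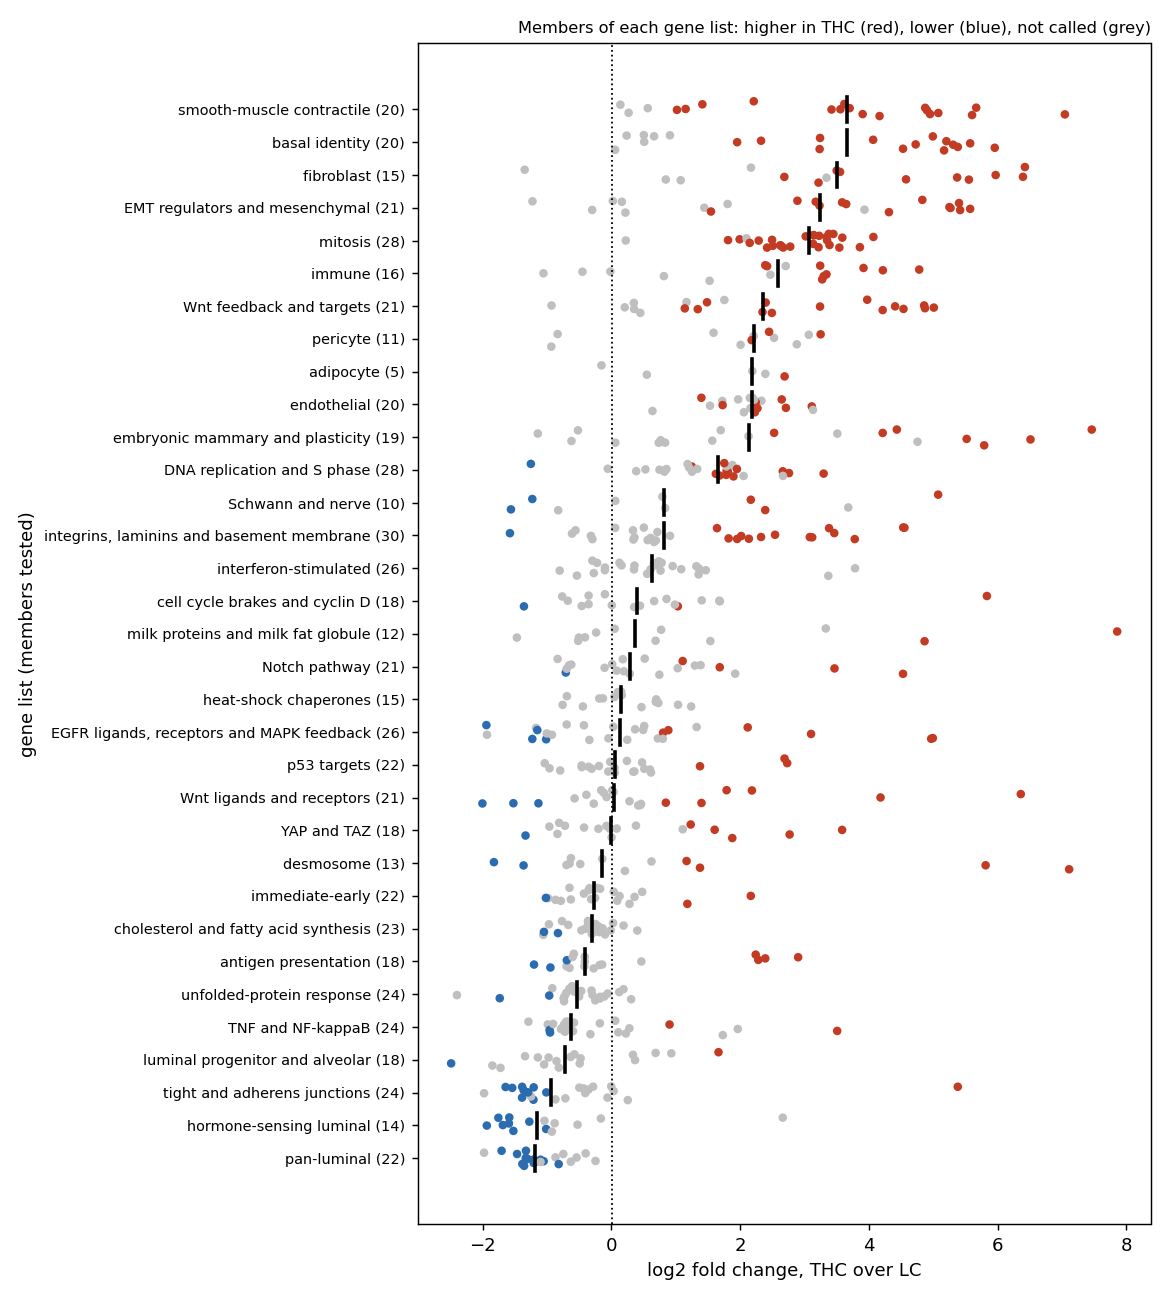
Log2 fold change of THC over LC for the tested members of each gene list with at least 5 tested members, with the list median as a bar and the median of all genes, 0.01, as a dotted line. Smooth-muscle contractile genes (median 3.66) and basal identity genes (3.65) lie at the top, and pan-luminal (-1.19) and hormone-sensing genes (-1.16) at the bottom.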

How the data were processed

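RNA of sorted mouse mammary cells was sequenced in 10 libraries of 5 populations, of which 4 (THC and LC) are compared here. The authors deposited raw read counts per gene. Reads were aligned with STAR to GRCm38 (mm10) and counted with HTSeq, per the submitters' processing notes, while versions, annotation and strandedness were not given in the sources used here. Summary rows that name no gene were left out. In the 4 libraries they held 12.6% to 27.4% of reads outside any gene, 2.81% or more ambiguous and 15.6% to 43.0% not aligned uniquely. Of 49671 gene IDs, 49412 were matched to a symbol. Depth differed between 2757773 and 13685674 counts, so a floor of 3 counts was 1.16 CPM in THC replicate 1 and 0.202 CPM in THC replicate 2.

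Genes were filtered with filterByExpr, scaled by TMM and fitted with edgeR's quasi-likelihood test (edgeR 4.0.16, R 4.3.3) on all 10 libraries with 1 coefficient per population, since 2 libraries a population leave few residual degrees of freedom. P-values were adjusted by Benjamini-Hochberg over 19757 genes. A standard error is the log2 fold change divided by the square root of its F statistic. The procedure was tested on simulated data, where 19557 of 19757 genes were left unchanged and 2 of these were called. It recovered 3 of 50 genes raised 2-fold and 0 of 50 lowered 2-fold. At 4-fold it recovered 27 of 50 raised and 25 of 50 lowered. Far fewer genes changed there than were called here, which can make the adjustment stricter, so these rates need not hold for the reported fit. A gene not called may still differ, also by 4-fold. Replicates differed by more than sampling noise in both populations. Named genes were the 8 highest and 8 lowest fold changes among called protein-coding genes whose higher group averaged 10 CPM or more without overlap, up to 4 called members per list and direction with the smallest adjusted p, called members against their list's median, and 14 fixed lineage and marker genes. Other list members are named with their values. The members and lists were chosen with earlier results of these data known. Promoter sequences are from RefSeq. Alternatives were other scaling factors, DESeq2 1.42.0, limma-voom (limma 3.58.1), other filters, the 4 libraries alone, a replicate block, a test against a 2-fold change, thinning to the smallest library and leaving out each library.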

Additional observations from a re-analysis of the deposited data

How the results depend on the processing

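No gene called in the reported fit was called in the opposite direction under any alternative run. Greb1, not called in that fit, had a log2 fold change of -1.825 without LC replicate 1 and 2.058 without LC replicate 2. Against 1760 genes higher and 791 lower in THC, DESeq2 gave 1959 and 1026, limma-voom 1884 and 943, relative log expression factors 1708 and 881, no low-count filter 2372 and 1131, and the 4 libraries alone 1559 and 704. A test against a 2-fold change called 795 higher and 53 lower, so 93.8% of its calls were higher, against 69.0% in the reported fit. Leaving out 1 library gave 790 to 1269 higher and 210 to 464 lower, and without THC replicate 1 the share higher was 84.3%. The replicate number, which follows the S-number of the library (44 to 48 or 80 to 84), was added as a replicate block. This gave 2342 higher and 1401 lower. Under the block, Tnf was called lower (adjusted p = 0.0284) and Tnfsf11 higher (0.0415), and the lists gave 9 unfolded-protein response, 9 TNF and NF-kappaB and 4 luminal progenitor genes lower and 2 interferon-stimulated genes higher. Deviations of same-numbered libraries had correlations from -0.0124 to 0.421 over 10 pairs of populations. These values do not decide whether the samples are paired. The labels state no pairing, and the reported fit holds no such term. Of 139 named genes called, the block lost 3 (Igfbp2, Itgb3 and Csn2), DESeq2 0, limma-voom 4 and the 2-fold test 65. With each library left out, 74 stayed called in all 4 fits and 65 were lost in at least 1. Depth limits genes near 1.16 CPM in THC replicate 1. The causes of these changes were not tested.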

Other observations

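Rgs1 and Sfrp4 were the genes called higher in THC than in each of the other 4 populations, chosen after their values were seen. Rgs1, a regulator of G protein signalling known from lymphocytes, was at 16.7 and 12.8 CPM in THC and at 3.04 and 2.66 CPM in LC, at 2.63 and 2.73 CPM in TLC, at 5.05 and 2.86 CPM in TBC and at 4.51 and 2.89 CPM in BC (log2 fold change of THC over LC 2.35 ± 0.42, SE, adjusted p = 0.0046). Sfrp4, a secreted Wnt modulator, was at 3.49 and 3.04 CPM in THC and at 0.108 and 0.0718 CPM in LC, at 0 and 0.182 CPM in TLC, at 0.474 and 0.293 CPM in TBC and at 0.392 and 0.340 CPM in BC. Both are low in level, and Sfrp4 had 54 counts over both THC libraries. Of 16 immune markers tested, 9 were also called higher in THC, and their part in the Rgs1 values was not tested.

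Immunoglobulin genes were high in 1 LC library. Igkc, the kappa light chain, had 4 and 0 counts in THC and 3353 and 57 in LC, and Jchain had 1 and 2 in THC and 291 and 8 in LC, and neither was called (adjusted p = 0.147 for Igkc).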
